A study of Mus musculus with 8 samples.

Results

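The genes described here are 10 readouts of p53 activity and of culture senescence in primary mouse embryonic fibroblasts (MEFs): Cdkn2a, Cdkn2b, Cdkn1a, Mdm2, Ccng1, Trp53inp1, Bax, Sesn2, Zmat3 and Lmnb1. They were taken by name from a table of 24972 genes, and all 10 passed the filter on low values that left 13267 genes for testing. The table gives RNA sequencing of 8 libraries of untreated MEFs, which are fibroblast cultures grown from dissociated embryos (here embryonic day 14, harvested after 2 passages). Each of 4 genotypes had 2 libraries: wild type (WT), cells with 1 functional allele of Tfam (Tfam+/-), cells without Zbp1 (Zbp1-/-), and cells with both changes (Tfam+/-Zbp1-/-). The Tfam protein compacts mitochondrial DNA and drives its transcription, while the Zbp1 protein binds nucleic acids in the Z form. The labels name no transgene, Cre, drug or clone. They do not say whether libraries of the same genotype trace to different embryos, so the spread between them may be technical.

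p53 is a transcription factor that is kept low by the ubiquitin ligase Mdm2, itself a p53 target, and that accumulates after DNA damage and other stress. Its targets include Cdkn1a, an inhibitor of cyclin-dependent kinases that stops the cell cycle, Ccng1 (cyclin G1), the pro-apoptotic protein gene Bax, the stress-response genes Sesn2 and Trp53inp1, and Zmat3, which encodes an RNA-binding zinc finger protein. The Cdkn2a-Cdkn2b locus acts beside this pathway: Cdkn2a encodes the kinase inhibitor INK4A and, from another first exon, ARF, which binds Mdm2, and Cdkn2b encodes the related inhibitor INK4B. Primary MEFs are known for building up Cdkn2a products over passages until they stop dividing, and loss of lamin B1 (Lmnb1), a protein of the nuclear lamina, is a common mark of senescent cells. The table has 1 row for Cdkn2a, so INK4A and ARF transcripts cannot be told apart.

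Promoter sequence is shown for the pair of genes whose window held a p53 response element, since these genes differed in opposite ways between libraries (values further on). RefSeq promoter windows (GRCm38.p6, 250 bases before to 50 after each start) were matched for 7 of the 10 genes, in 9 windows. The element searched was the p53 response element, 20 bases made of 2 arms of 10 bases with no spacer, allowing 1 mismatch outside the fixed C and G of each arm. It reads the same on both strands, and 22 of all 32851 windows (0.067%) held it. Capitals mark the element in the stretches below, which stop before the first base of the gene in RefSeq. The Cdkn1a stretch is chr17:29090729-29090978 on the plus strand, and the Ccng1 stretch is chr11:40755310-40755536 on the minus strand.
Cdkn1a: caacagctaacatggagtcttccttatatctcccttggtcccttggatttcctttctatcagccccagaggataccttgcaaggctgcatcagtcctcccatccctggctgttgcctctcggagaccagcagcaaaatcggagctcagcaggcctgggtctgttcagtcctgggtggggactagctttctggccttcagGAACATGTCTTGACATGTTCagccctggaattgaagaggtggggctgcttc
Ccng1: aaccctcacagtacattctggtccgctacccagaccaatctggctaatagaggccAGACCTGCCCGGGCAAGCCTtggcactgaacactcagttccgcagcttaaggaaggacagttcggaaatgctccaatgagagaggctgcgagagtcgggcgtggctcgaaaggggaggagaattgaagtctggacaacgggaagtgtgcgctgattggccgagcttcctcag
The element began 51 bases before the first base of Cdkn1a (chr17:29090928-29090947) and 172 bases before that of Ccng1 (chr11:40755462-40755481), each with 1 mismatch. For Ccng1 this was 195 bases before the start that the RefSeq window is drawn on. Cdkn1a has another start further downstream, at chr17:29093769. The windows of Bax and Mdm2 held a single arm, AGGCAAGCTT and GAACTTGCCT, which 8.36% of all windows held (the arm of either strand, any overlap with the element counted). The windows of Cdkn2a (2 starts), Cdkn2b and Sesn2, and the window of another start of Cdkn1a, held neither, which says only that these letters are not in these windows. A match is a description of the sequence and not evidence of binding in these cells.

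Levels were first compared between genes per kilobase of transcript in WT, using the longest protein-coding transcript of each gene. Ccng1 was the highest, at 7260 and 7550 normalized counts per kilobase in the 2 WT libraries. Cdkn1a followed at 3180 and 3120, Bax at 2110 and 2080, and Mdm2 at 1080 and 1140. Below these p53 targets lay Trp53inp1 (758 and 784), Cdkn2b (605 and 635) and Cdkn2a (539 and 618). Lmnb1 was at 499 and 498, Zmat3 at 425 and 437, and Sesn2 at 303 and 315 per kilobase. Cdkn2b and Cdkn2a were the only neighbours in this order whose WT libraries overlapped. The p53 targets thus held both the highest and the lowest places among the 10 genes.

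Library totals were 16752835 to 18303036 normalized counts. Tfam, the targeted gene, was at 610 to 629 normalized counts in WT and 471 to 675 in Zbp1-/-, and at 278 to 365 in Tfam+/- and 375 to 424 in Tfam+/-Zbp1-/-. Zbp1 was at 64.6 to 69.8 in Tfam+/-, 3.19 to 7.34 in WT, 1.03 to 3.79 in Zbp1-/- and 0.862 to 2.69 in Tfam+/-Zbp1-/-. Fibroblast markers (8 of 8 genes above a mean of 10) summed to 497200 to 731600 per library. All 8 macrophage and leukocyte markers were also detected, with a summed level of 4540 to 4595 in WT, 5235 to 5965 in Tfam+/-, 2669 to 2825 in Zbp1-/- and 2325 to 2331 in Tfam+/-Zbp1-/-. Skeletal muscle markers summed to 362.3 to 907.4, endothelial to 233 to 386, epithelial to 118.8 to 400.1 and neural crest to 113.9 to 323.7. The defining genes Pecam1, Cdh5, Epcam, Cdh1, Myod1 and Myog had a mean below 10. The part of leukocytes in the values below was not tested, and fewer cells of a type cannot be told apart from less RNA per cell.

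Tfam+/- replicate 1 and Zbp1-/- replicate 2 stood apart from their partners, and the 10 genes split over it. Both libraries had more Cdkn2a, Bax, Sesn2, Cdkn2b and Cdkn1a, and less Trp53inp1, Ccng1, Zmat3 and Mdm2, than the other library of their genotype. Cdkn2a was at 834 in Tfam+/- replicate 1 against 478 in replicate 2, and at 767 in Zbp1-/- replicate 2 against 569 in replicate 1. Trp53inp1 was at 1455 against 3429 in Tfam+/- and at 2218 against 5548 in Zbp1-/-. Ccng1 was at 13622 against 24933 in Tfam+/- and at 13944 against 25970 in Zbp1-/-. The promoters printed above thus belong to 2 p53 targets that moved in opposite directions in the same libraries, since Cdkn1a was higher in both, at 8870 against 6988 and at 8608 against 7529.

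The mean shift of these 2 libraries against their partners was 0.62 (log2) for Cdkn2a, 0.55 for Bax, 0.38 for Sesn2, 0.27 for Cdkn2b and 0.27 for Cdkn1a. It was -1.28 for Trp53inp1, -0.88 for Ccng1, -0.54 for Zmat3 and -0.27 for Mdm2. Lmnb1 was the exception, with a mean shift of 0.008 and opposite signs in the 2 libraries. The median size of the shift over the 10 genes was 0.457, against 0.053 between the WT libraries and 0.044 between the Tfam+/-Zbp1-/- libraries. The shift was not particular to these genes: its median size over all genes tested was 0.325, and 86.7% of genes had the same sign in both libraries. Because the libraries were singled out for this shift, no test is given for it.

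**Figure D1:**
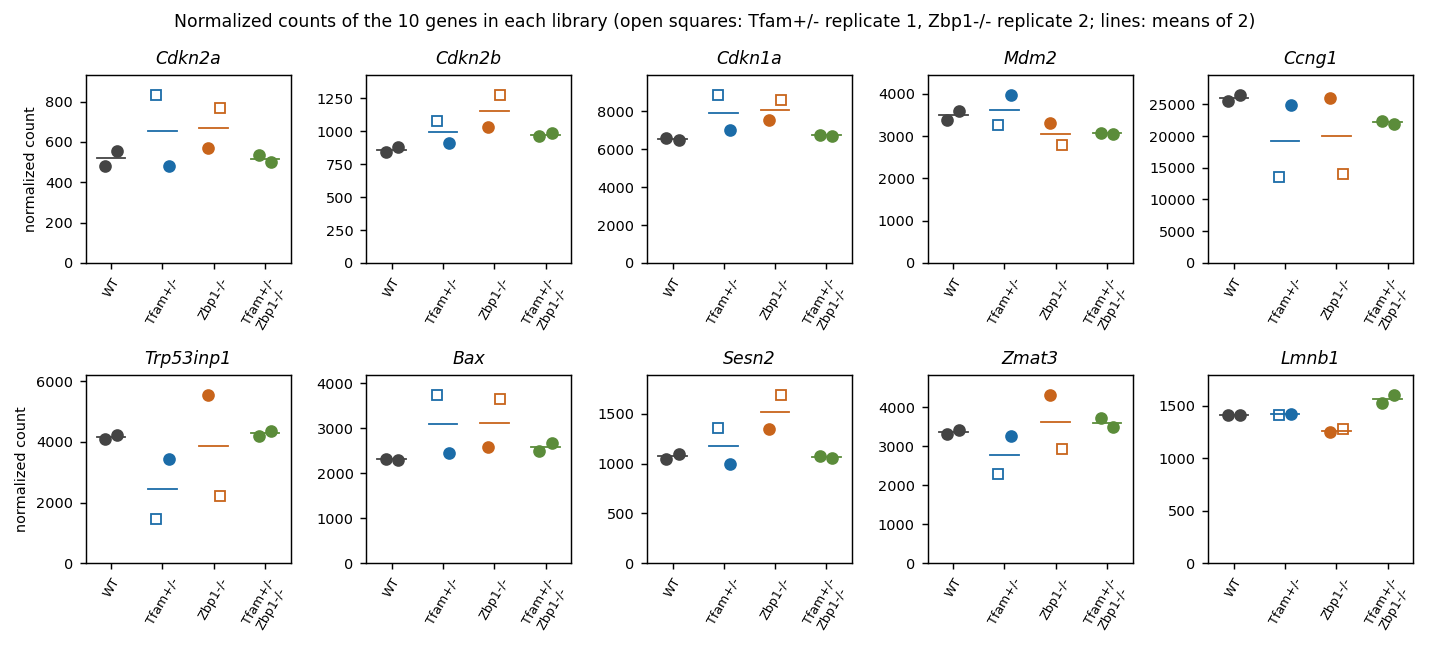
Normalized counts (y axis, from 0) of the 10 genes in each library by genotype (x axis), with lines at the mean of the 2 libraries and open squares for Tfam+/- replicate 1 and Zbp1-/- replicate 2. The open squares lie above their partner for Cdkn2a, Cdkn2b, Cdkn1a, Bax and Sesn2 and below it for Mdm2, Ccng1, Trp53inp1 and Zmat3, while Lmnb1 is tight within every genotype.

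The direction of a gene's shift went with the GC content of its transcript. The 5 genes that were higher in both libraries had transcripts of 54.4% to 63.5% GC (Cdkn1a, Cdkn2b, Sesn2, Cdkn2a and Bax, in rising order), and the 4 that were lower had 38.8% to 47.6% (Trp53inp1, Ccng1, Mdm2 and Zmat3). Lmnb1, at 53.3%, lay between. Across the 12733 genes with a GC value, which are not independent replicates, the shift correlated with GC content at r = 0.782 and with log2 transcript length at r = -0.331. The difference between the WT libraries correlated with GC at r = 0.0313, and that between the Tfam+/-Zbp1-/- libraries at r = 0.00678. Subtracting each library's smooth trend on GC content brought the median size of the 10 shifts from 0.457 to 0.143, against 0.325 to 0.144 over all genes. Trp53inp1 (-0.36) and Zmat3 (-0.37) kept the largest shifts after this correction, and those of Cdkn1a (0.011), Mdm2 (0.01) and Sesn2 (0.001) were the smallest. That of Lmnb1 grew in size, from 0.008 before the correction to -0.197 after it.

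**Figure D2:**
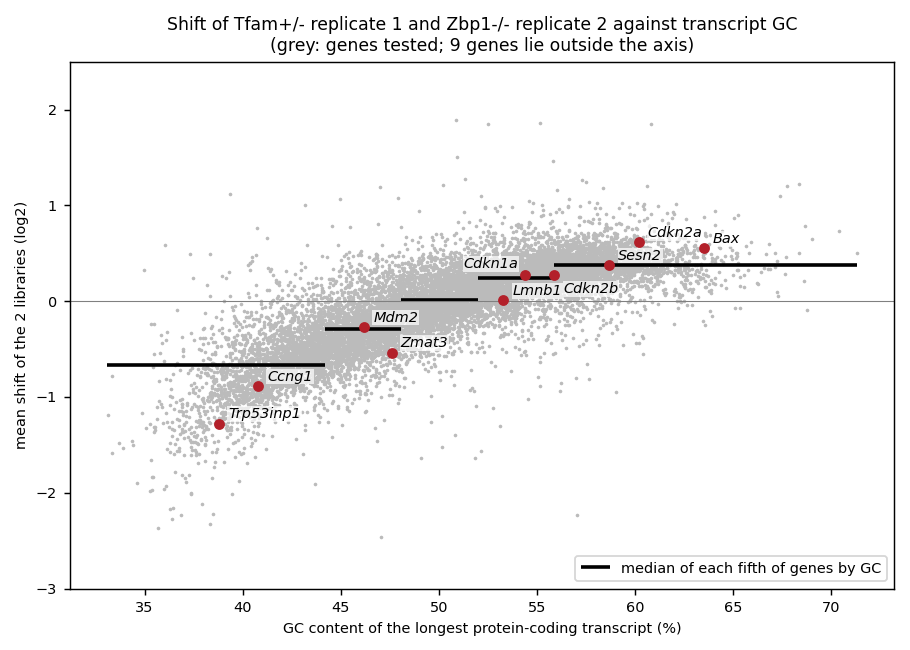
Mean log2 shift of Tfam+/- replicate 1 and Zbp1-/- replicate 2 against the other library of their genotype (y axis) by transcript GC content in percent (x axis), for the genes tested (grey), with the median of each of 5 equal groups of genes by GC (black) and the 10 genes in red (9 genes lie outside the axis). The medians go from -0.667 in the group of lowest GC to 0.374 in the highest, and Trp53inp1, Ccng1, Mdm2 and Zmat3 lie at the low end and Bax, Cdkn2a and Sesn2 at the high end.

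For this reason each comparison of genotypes is given for all 8 libraries and again in 3 ways chosen after seeing the data: with a term shared by these 2 libraries, from the other 6 libraries, and from all 8 after the GC correction. In the fit of the other 6 libraries, Tfam+/- and Zbp1-/- each rest on 1 library that is assumed to vary like the others. The shared term keeps all 8 libraries but assumes that the 2 that stood apart were shifted by the same amount. Changes are on the log2(normalized count + 1) scale, with the standard error (SE) of limma's fit of all 4 genotypes, and a gene passed at a Benjamini-Hochberg adjusted p under 0.05 over all genes tested. With 2 libraries per genotype the smallest p of an exact permutation test is 0.333. The median change of all genes was 0.107 for Zbp1-/- against WT, 0.143 for Tfam+/-Zbp1-/- against Tfam+/- and 0.121 for Tfam+/-Zbp1-/- against WT, and changes there are to be read relative to it.

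Against WT, Tfam+/- libraries did not differ past the threshold in any of the 10 genes (0 of 10 by limma; smallest adjusted p = 0.559; 0 at an unadjusted p under 0.05), where 0.731% of all genes tested passed. Trp53inp1 was -0.90 ± 0.50 (SE, n = 2 libraries per genotype; limma adjusted p = 0.559), with libraries at 1455 and 3429 below WT at 4097 and 4238. Ccng1 was -0.50 ± 0.35 (limma adjusted p = 0.559), with 13622 and 24933 against 25497 and 26512, and -0.06 without Tfam+/- replicate 1. Bax was 0.39 ± 0.23 (limma adjusted p = 0.559), with libraries at 3736 and 2448 above WT at 2326 and 2293, and 0.08 without that replicate. Both libraries also lay above WT for Cdkn2b and Cdkn1a and below it for Zmat3, so that 6 of 10 genes did not overlap, against 48.8% of all genes tested. Cdkn2a overlapped WT, at 834 and 478 against 483 and 553.

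Fitted with the shared term, 3 of the 10 genes differed between Tfam+/- and WT, where 15.6% of all genes passed. They were Mdm2, higher by 0.18 ± 0.04 (limma adjusted p = 0.00291), Cdkn1a, higher by 0.13 ± 0.03 (limma adjusted p = 0.0122), and Trp53inp1, lower by -0.26 ± 0.04 (limma adjusted p = 7.63e-05). The same 3 passed in the other 6 libraries, where 15.4% of genes did, and 0 of 10 passed after the GC correction, where 3.77% did. After that correction Mdm2 was 0.18 ± 0.05 (limma adjusted p = 0.112) and Trp53inp1 -0.39 ± 0.14 (limma adjusted p = 0.194). Cdkn2a was -0.02 ± 0.09 with the shared term and 0.11 ± 0.12 after the GC correction, and its sign differed between these fits.

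Zbp1-/- libraries did not differ from WT past the threshold in any of the 10 genes either (0 of 10 by limma; smallest adjusted p = 0.2), where 1.06% of all genes did. The unadjusted p was under 0.05 for 2 of 10 genes, Sesn2 and Cdkn2b, beside 19.7% of all genes. Sesn2, which encodes a stress-induced inhibitor of mTORC1 signalling, was at 1352 and 1690 in Zbp1-/- against 1053 and 1095 in WT (0.49 ± 0.17, limma adjusted p = 0.206). Cdkn2b was at 1032 and 1279 against 842 and 883 (0.41 ± 0.14, limma adjusted p = 0.2). In all, 7 genes did not overlap between these genotypes, against 58.9% of all genes: Cdkn2a, Cdkn2b, Cdkn1a, Bax and Sesn2 were higher and Mdm2 and Lmnb1 lower.

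Lmnb1 was the one gene that also differed from WT in Zbp1-/- in each of the 3 further fits. It was at 1252 and 1276 in Zbp1-/- against 1418 and 1414 in WT, and both Zbp1-/- libraries lay below the other 6. With the GC correction its difference between Zbp1-/- replicates 2 and 1 went from 0.027 to -0.167. The change from WT after that correction carries this offset. The change was -0.16 ± 0.09 over all 8 libraries (limma adjusted p = 0.345), -0.17 ± 0.05 with the shared term (limma adjusted p = 0.00903), -0.18 ± 0.05 in the other 6 libraries (limma adjusted p = 0.0101) and -0.42 ± 0.09 after the GC correction (limma adjusted p = 0.0296). In the fit with the shared term 7 of 10 genes passed, as in the other 6 libraries, where 35.6% and 34.3% of all genes did. Besides Lmnb1, 6 were higher in Zbp1-/-, where 28.5% of all genes were higher and 7.01% lower with the shared term: Trp53inp1 by 0.39 ± 0.04, Zmat3 by 0.35 ± 0.04, Sesn2 by 0.30 ± 0.05, Cdkn2b by 0.28 ± 0.05, Cdkn1a by 0.16 ± 0.03 and Bax by 0.13 ± 0.04. Over all 8 libraries Trp53inp1 had the opposite sign (-0.25 ± 0.50) and Zmat3 was 0.08 ± 0.22, and the direction of Trp53inp1 turned where Zbp1-/- replicate 2 was left out. None of these 6 passed after the GC correction (0.18, 0.05, 0.10, 0.09, 0.01 and -0.07 in the same order), where 1 of 10 and 8.18% of all genes did.

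Tfam+/-Zbp1-/- libraries were compared with Tfam+/- to measure the loss of Zbp1 where 1 Tfam allele was lost. Over all 8 libraries 0 of 10 genes passed (limma; smallest adjusted p = 0.329; 0 at an unadjusted p under 0.05), where 5.64% of all genes did. Trp53inp1 had the largest difference there, 0.94 ± 0.50 (limma adjusted p = 0.329), with 4200 and 4370 in Tfam+/-Zbp1-/- above 1455 and 3429 in Tfam+/-. It was 0.30 ± 0.04 with the shared term, 0.32 ± 0.04 in the other 6 libraries and 0.39 ± 0.14 after the GC correction. Zmat3 and Lmnb1 also lay higher without overlap, and Cdkn1a and Mdm2 lower, which makes 5 of 10 against 55.9% of all genes.

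Mdm2 was lower in Tfam+/-Zbp1-/- than in Tfam+/- in all 3 further fits. Its libraries were at 3087 and 3048 in Tfam+/-Zbp1-/-, against 3258 and 3981 in Tfam+/- and 3392 and 3600 in WT. The change from Tfam+/- was -0.23 ± 0.14 over all 8 libraries (limma adjusted p = 0.363), -0.37 ± 0.04 with the shared term (limma adjusted p = 3.04e-07), -0.38 ± 0.04 in the other 6 libraries (limma adjusted p = 7.43e-07) and -0.45 ± 0.05 after the GC correction (limma adjusted p = 0.000775). These fits called 6, 5 and 3 of the 10 genes, where 45.6%, 43.6% and 17.9% of all genes passed. Cdkn1a passed as lower with the shared term (-0.09 ± 0.03) and after the GC correction (-0.22 ± 0.05) but not in the other 6 libraries (-0.05 ± 0.03). Bax passed in 1 of these fits, after the GC correction, at -0.36 ± 0.07 (limma adjusted p = 0.0126). It was -0.23 ± 0.23 over all 8 libraries (limma adjusted p = 0.583) and 0.05 ± 0.04 with the shared term (limma adjusted p = 0.38).

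Tfam+/-Zbp1-/- libraries were compared with Zbp1-/- to measure the loss of 1 Tfam allele without Zbp1. Again 0 of 10 genes passed over all 8 libraries (limma; smallest adjusted p = 0.246), where 0.415% of all genes did. Lmnb1 and Sesn2, 2 of 10, had an unadjusted p under 0.05, beside 12.3% of all genes. Lmnb1 was at 1530 and 1604 in Tfam+/-Zbp1-/- against 1252 and 1276 in Zbp1-/-, the highest and the lowest pair of libraries of the 4 genotypes. The offset that the GC correction gave Lmnb1 in Zbp1-/- replicate 2 enters here too. The change was 0.31 ± 0.09 over all 8 libraries (limma adjusted p = 0.246), 0.31 ± 0.05 with the shared term (limma adjusted p = 5.91e-05), 0.32 ± 0.05 in the other 6 libraries (limma adjusted p = 0.000113) and 0.43 ± 0.09 after the GC correction (limma adjusted p = 0.0288). Sesn2 lay in the opposite direction, at 1079 and 1060 against 1352 and 1690. Its change was -0.50 ± 0.17 (limma adjusted p = 0.313) over all 8 libraries and passed in the further fits at -0.31 ± 0.05, -0.34 ± 0.05 and -0.30 ± 0.06 (limma adjusted p = 0.000177, 0.000184 and 0.0192).

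These 2 genes were the ones that passed after the GC correction in this comparison, where 7.51% of all genes did. The fits with the shared term and of the other 6 libraries each called 7 of 10, where 23.8% and 23.4% of all genes passed. Besides Lmnb1 and Sesn2 these were Trp53inp1 (-0.35 ± 0.04), Zmat3 (-0.25 ± 0.04), Ccng1 (-0.22 ± 0.03), Mdm2 (-0.12 ± 0.04) and Cdkn1a (-0.12 ± 0.03), all lower, where 11% of all genes were lower and 12.8% higher with the shared term. For Trp53inp1, Zmat3, Ccng1 and Mdm2 the sign over all 8 libraries was the opposite (0.29 ± 0.50, 0.02 ± 0.22, 0.22 ± 0.35 and 0.01 ± 0.14), and turned where Zbp1-/- replicate 2 was left out. Cdkn2a, Cdkn2b, Cdkn1a and Sesn2 lay lower without overlap and Lmnb1 higher, 5 of 10 genes against 49.5% of all genes.

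**Figure D3:**
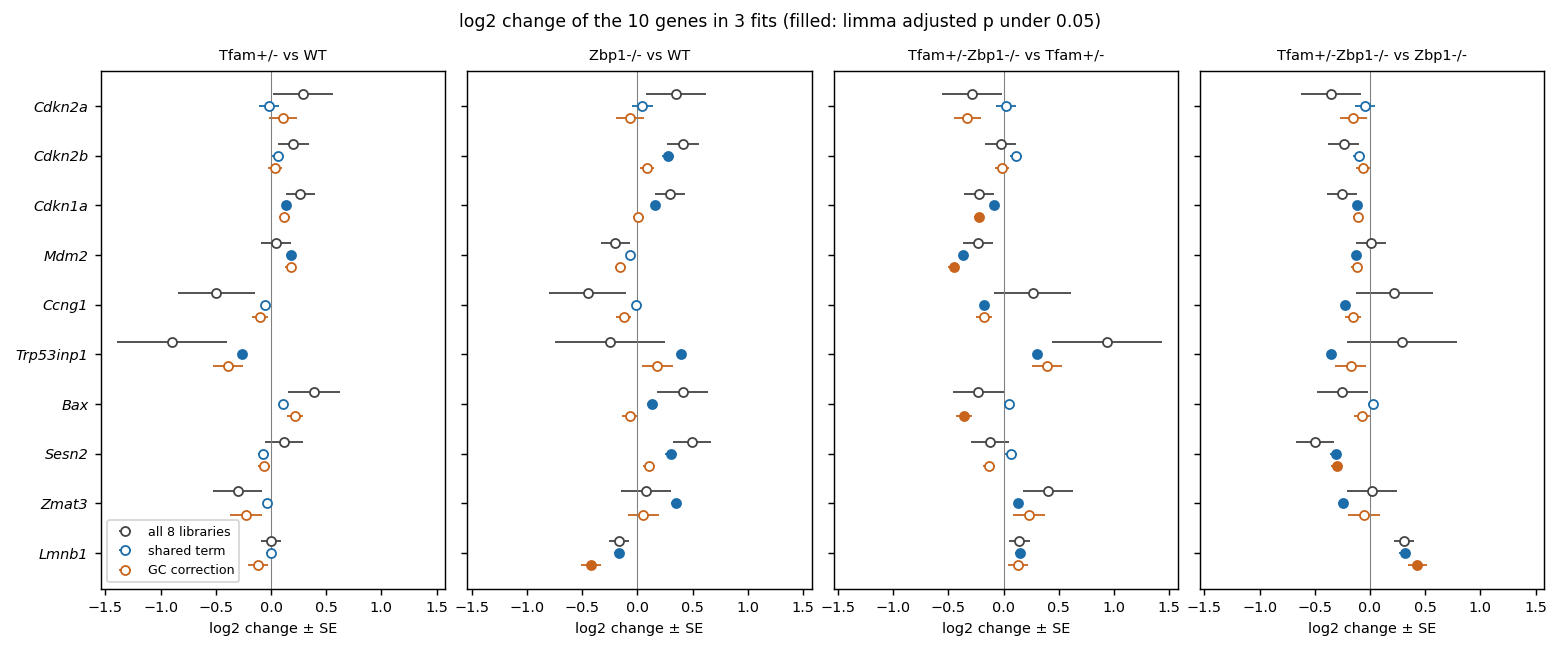
Change of each gene (y axis) with its standard error on the log2 scale (x axis) in 4 comparisons, over all 8 libraries (grey), with the term shared by the 2 libraries (blue) and after the GC correction (orange); filled points passed the limma threshold. No grey point is filled, and the points filled in both blue and orange are Lmnb1 (Zbp1-/- against WT, and Tfam+/-Zbp1-/- against Zbp1-/-), Mdm2 and Cdkn1a (Tfam+/-Zbp1-/- against Tfam+/-) and Sesn2 (Tfam+/-Zbp1-/- against Zbp1-/-).

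Neither library that stood apart belongs to WT or to Tfam+/-Zbp1-/-, and their 10 genes were tight within each genotype. Over all 8 libraries 0 of 10 genes differed between these genotypes (limma; smallest adjusted p = 0.592; 0 at an unadjusted p under 0.05), where 1.38% of all genes did. When limma's spread was taken from these 4 libraries alone, 6 of 10 genes passed, as with the shared term and in the other 6 libraries (42.5% and 44.8% of all genes in the last 2). Ccng1 was lower, at 22364 and 21920 in Tfam+/-Zbp1-/- against 25497 and 26512 in WT (-0.23 ± 0.02 with the shared term). Mdm2 was lower (-0.19 ± 0.03), and Cdkn2b (0.18 ± 0.05), Bax (0.16 ± 0.04), Lmnb1 (0.15 ± 0.04) and Zmat3 (0.10 ± 0.04) were higher, of which Zmat3 changed sign when libraries were rescaled with TMM factors (trimmed means of M-values). After the GC correction Mdm2 alone passed, at -0.27 ± 0.05 (limma adjusted p = 0.0158), where 7.51% of all genes did, and Ccng1 was -0.28 ± 0.07 (limma adjusted p = 0.0552). The genes that were higher with the shared term were near 0 or turned after that correction, with Bax at -0.14, Cdkn2b at 0.02, Lmnb1 at 0.009 and Zmat3 at -0.0005. Groups did not overlap for 7 of 10 genes, against 72.9% of all genes. Cdkn2a was at 537 and 498 in Tfam+/-Zbp1-/- against 483 and 553 in WT, and overlapped.

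The interaction asks whether the change with 1 Tfam allele lost differed without Zbp1, as Tfam+/-Zbp1-/- minus Zbp1-/- less the change between WT and Tfam+/-. Over all 8 libraries 0 of 10 genes passed (limma; smallest adjusted p = 0.29), where 0.663% of all genes did. Cdkn1a (-0.52 ± 0.19) and Sesn2 (-0.62 ± 0.25), 2 of 10, had an unadjusted p under 0.05, beside 16% of all genes. Mdm2 and Lmnb1 passed in each of the 3 further fits. For Mdm2 the interaction was -0.03 ± 0.19 over all 8 libraries (limma adjusted p = 0.916; -0.18 to 0.11 with 1 library left out), and -0.30 with the shared term, in the other 6 libraries and after the GC correction (limma adjusted p = 0.00119, 0.000801 and 0.0493). For Lmnb1 it was 0.31 ± 0.13 over all 8 libraries (limma adjusted p = 0.315). In the 3 further fits it was 0.31, 0.31 and 0.55 (limma adjusted p = 0.00478 with the shared term and 0.0456 after the GC correction). That correction gave Lmnb1 an offset in both libraries that stood apart, and the 0.55 carries both. Its difference between Tfam+/- replicates 1 and 2 went from -0.011 to -0.227. Between Zbp1-/- replicates 2 and 1 it went from 0.027 to -0.167. Both with the shared term and in the other 6 libraries Cdkn1a, Ccng1, Sesn2 and Zmat3 passed too, as lower, which makes 6 of 10 where 16.9% and 19.1% of all genes passed. With the shared term these were -0.25 for Cdkn1a, -0.17 for Ccng1, -0.24 for Sesn2 and -0.21 for Zmat3. Ccng1 (0.71 ± 0.49) and Zmat3 (0.32 ± 0.32) had the opposite sign over all 8 libraries, and Zmat3 again after the GC correction (0.17 ± 0.20). After the GC correction 2 of 10 and 6.38% of all genes did. These comparisons share libraries, so their values are not independent of each other.

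The level of the p53 transcript itself followed the libraries that stood apart. In Tfam+/- Trp53 was at 2339 and 1809 normalized counts, above WT at 1529 and 1622. Zbp1-/- libraries had 1746 and 2150, and Tfam+/-Zbp1-/- libraries 1691 and 1726. The change from WT was 0.39 ± 0.16 in Tfam+/- over all 8 libraries (limma adjusted p = 0.557), 0.22 ± 0.05 with the shared term (limma adjusted p = 0.00236) and 0.25 ± 0.07 after the GC correction (limma adjusted p = 0.0953). Mdm4, which encodes the Mdm2-related inhibitor of p53, lay the other way, at 934 and 1386 in Tfam+/- against 1510 and 1543 in WT (-0.42 ± 0.25, limma adjusted p = 0.559). The change was -0.12 ± 0.05 with the shared term, -0.14 ± 0.05 in the other 6 libraries and -0.16 ± 0.07 after the GC correction. Mdm4 was also low in Zbp1-/- replicate 2, at 1026 against 1612 in replicate 1. Of the 12 genes for p53 and its regulators, 10 were tested and 0 passed in any comparison over all 8 libraries (limma). Trp53, 1 of the 10, had an unadjusted p under 0.05 in Tfam+/- against WT and in the interaction. Over all genes 8.74% and 16% had one in these comparisons.

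Of 30 further p53 targets, all tested, 1 passed over all 8 libraries in any of the 6 comparisons. This was Plk2, a kinase of the stress response, at 2303 and 2224 in Tfam+/-Zbp1-/- against 3273 and 3509 in Tfam+/- (-0.58 ± 0.09, limma adjusted p = 0.0162). In that comparison 5.64% of all genes passed. At an unadjusted p under 0.05 there were 2 of 30 in Tfam+/- against WT, where 8.74% of all genes had one, and 9 of 30 in Zbp1-/- against WT, where 19.7% did. The median change of the 30 genes was 0.006 in Tfam+/- against WT (all genes -0.01) and 0.148 in Zbp1-/- against WT (all genes 0.107). The split seen among the 10 genes recurred here: 15 of the 30 were higher and 14 lower in both libraries that stood apart, with shifts from -1.05 to 0.64. The fit with the shared term had 17 higher and 2 lower in Zbp1-/- than in WT (28.5% and 7.01% of all genes), and after the GC correction 3 were higher and 2 lower (3.85% and 4.34% of all genes).

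Among 12 other CDK inhibitors and genes of the RB pathway, 2 passed over all 8 libraries, each in 1 comparison. These were Tfam+/-Zbp1-/- against Tfam+/- and against Zbp1-/-, where 5.64% and 0.415% of all genes passed. Cdkn2c, which encodes INK4C, was higher in Tfam+/-Zbp1-/- at 377 and 427 than in Tfam+/- at 207 and 203 (0.96 ± 0.14, limma adjusted p = 0.0132). Cdkn1c, which encodes the inhibitor p57, was lower in Tfam+/-Zbp1-/- at 1374 and 1429 than in Zbp1-/- at 2360 and 2569 (-0.81 ± 0.11, limma adjusted p = 0.0461). Of 13 regulators of the Cdkn2a-Cdkn2b locus, such as the Polycomb genes Bmi1 and Ezh2, 0 passed in any comparison over all 8 libraries (limma), with 1 at an unadjusted p under 0.05 in Tfam+/- against WT and 3 in Zbp1-/- against WT, beside 8.74% and 19.7% of all genes.

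Secreted factors that senescent cells are known for were called over all 8 libraries. They come from a list of 22 genes that also holds Glb1, which encodes a lysosomal enzyme. Of the list 21 genes were tested. Of these, 3 passed in Tfam+/- against WT, 3 in Zbp1-/- against WT, 5 in Tfam+/-Zbp1-/- against Tfam+/-, 3 against Zbp1-/- and 1 against WT. Over all genes tested 0.731%, 1.06%, 5.64%, 0.415% and 1.38% passed in the same order, and whether the list differs from other genes was not tested. The calls did not go one way. In Tfam+/-, the chemokine gene Ccl2 rose to 1589 and 2205 from 769 and 760 in WT (1.29 ± 0.19, limma adjusted p = 0.0459) and the matrix metalloproteinase gene Mmp3 to 355 and 414 from 176 and 195 (1.04 ± 0.15, limma adjusted p = 0.0394). Igfbp3, which encodes a carrier of insulin-like growth factors, fell to 2384 and 2358 from 4493 and 4602 (-0.94 ± 0.09, limma adjusted p = 0.00692).

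Igfbp3 went the opposite way in Zbp1-/-, where it rose to 8576 and 8252 (0.89 ± 0.09, limma adjusted p = 0.0137), and in Tfam+/-Zbp1-/- it was at 4657 and 4674, next to WT. In Zbp1-/-, Mmp3 (0.96 ± 0.15, limma adjusted p = 0.0438) and Igfbp4 (0.85 ± 0.11, limma adjusted p = 0.0294) rose as well. From Tfam+/- to Tfam+/-Zbp1-/-, Cxcl5 (1.63 ± 0.33), Igfbp4 (1.06 ± 0.11) and Igfbp3 (0.98 ± 0.09) rose and Ccl2 (-1.04 ± 0.19) and Igfbp7 (-0.76 ± 0.10) fell. From Zbp1-/- to Tfam+/-Zbp1-/-, Mmp13 (-1.49 ± 0.18), Igfbp3 (-0.85 ± 0.09) and Igfbp5 (-0.61 ± 0.08) fell, and Igfbp4 was higher in Tfam+/-Zbp1-/- than in WT (0.80 ± 0.11). The interaction passed for Mmp3 (-1.50 ± 0.21, limma adjusted p = 0.0403). Leukocyte markers, whose sums are given above, were lower in both genotypes without Zbp1.

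All 19 calls of Plk2, Cdkn2c, Cdkn1c and these 8 secretory genes were also made with the shared term, in the other 6 libraries and after the GC correction, in the same direction. None was made in every one of the 8 fits that left out 1 library. The call was lost without either Tfam+/-Zbp1-/- library in each case, and in most without either WT library, although no change of sign occurred. For Mmp3 in Tfam+/- against WT and for its interaction, the call was lost in each of the 8 fits. For Igfbp3 in Tfam+/- against WT, for instance, the change stayed between -0.96 and -0.92 and the adjusted p went from 0.0125 to 0.145.

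**Figure D4:**
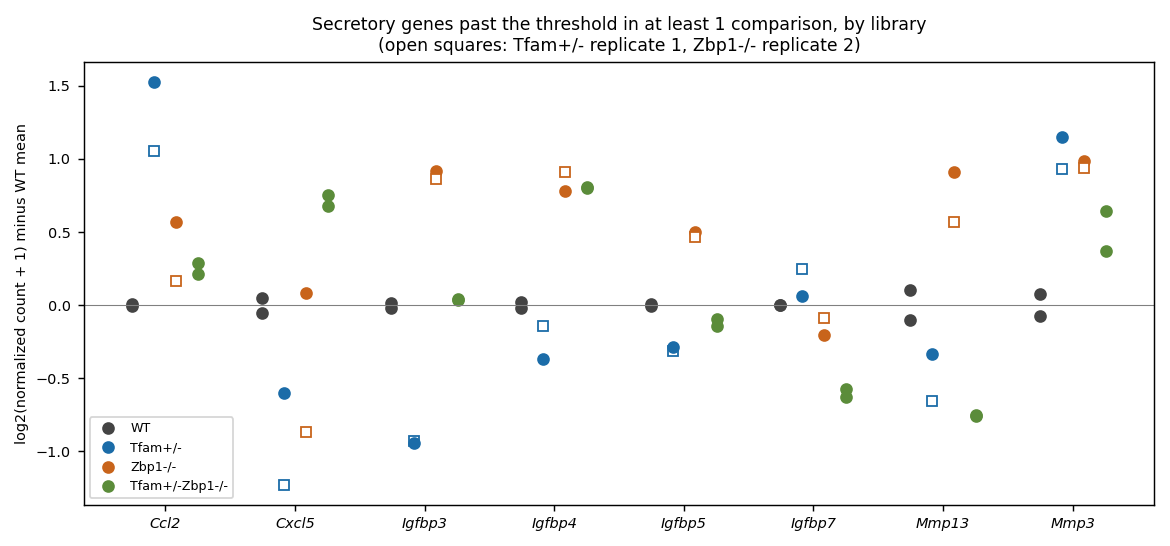
Levels of the 8 secretory genes that passed in at least 1 comparison, as log2(normalized count + 1) minus the WT mean (y axis), for each library by gene and genotype (x axis), with open squares for Tfam+/- replicate 1 and Zbp1-/- replicate 2. Igfbp3 lies low in Tfam+/- and high in Zbp1-/-, Igfbp4 is high in both genotypes without Zbp1, and the open squares lie close to their partners for both genes, unlike for Cxcl5.

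Proliferation genes, which fall when cells become senescent, were tested as 20 genes. None passed over all 8 libraries in any comparison (limma; 0 of 20 at an unadjusted p under 0.05 in Tfam+/- against WT, 4 in Zbp1-/- against WT and 12 in Tfam+/-Zbp1-/- against Zbp1-/-, beside 8.74%, 19.7% and 12.3% of all genes). In Tfam+/-Zbp1-/- against Zbp1-/- 19 of 20 had a positive change, with a median of 0.416 (all genes 0.018), and 18 passed as higher with the shared term (12.8% of all genes) and 9 after the GC correction (3.61%). In Zbp1-/- against WT 11 passed as lower with the shared term (7.01% of all genes) and 5 after the GC correction (4.34%), with a median of -0.162 over all 8 libraries (all genes 0.107). In Tfam+/-Zbp1-/- against WT 20 of 20 had a positive change, with a median of 0.238 (all genes 0.121). There 18 passed as higher with the shared term (35.3% of all genes) and 2 after the GC correction (3.37%). In Tfam+/-Zbp1-/- against Tfam+/- 11 passed as higher with the shared term (35.4%) and 1 after the GC correction (8.69%). Lmnb1, described above, was also lower in Zbp1-/- than in WT and higher in Tfam+/-Zbp1-/- than in Zbp1-/-.

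Over the 8 libraries the p53 targets did not vary as 1 group. Cdkn1a correlated with Bax at r = 0.949 and with Ccng1 at r = -0.885, and Ccng1 correlated with Bax at r = -0.977. In the other 6 libraries the same values were 0.544, 0.16 and -0.649, so the 2 libraries that stood apart carry much of the pattern. Trp53inp1 and Zmat3, both with GC-poor transcripts, correlated at 0.958 over 8 libraries and 0.892 over 6. Sesn2, with a GC-rich transcript, went from -0.523 to 0.936 with Trp53inp1 and from -0.318 to 0.937 with Zmat3. Cdkn1a and Zmat3 went from -0.636 to 0.761. In the other 6 libraries Mdm2 correlated negatively with Trp53inp1 (-0.546), Bax (-0.544), Zmat3 (-0.441) and Sesn2 (-0.266). With Ccng1 its correlation there was positive (0.666), and with Cdkn1a it was 0.042. These values describe libraries that share depth and preparation, and no test is given.

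The genes most like Cdkn1a over the 8 libraries were Sqstm1 (r = 0.996), Adap1 (0.991), Vat1 (0.989), Wars (0.988) and Napa (0.986), and in the other 6 libraries their r was 0.944 to 0.991. Those most like Mdm2 were Tfpi2 (0.979), Rabggtb (0.972), Fam49a (0.972), Cttnbp2nl (0.969) and Cd44 (0.969), with 0.963 to 0.984 in the other 6. Those most like Cdkn2a were Ufsp1 (0.991), Phkg2 (0.975), Pla2g15 (0.973), Pop7 (0.970) and Palm (0.968), which dropped to between 0.698 and 0.895 in the other 6 libraries. All 5 genes like Cdkn2a had transcripts of 54.8% to 57.2% GC. The 5 like Cdkn1a had 53.6% to 61.4%, and the 5 like Mdm2 had 39.3% to 47.9%.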

How the data were processed

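RNA of 8 MEF libraries was sequenced by the authors. Reads were aligned with STAR in RNAseq Alignment 2.0.0 to mm10 with RefSeq genes, and genotypes were compared in RNA-seq Differential Expression 1.0.0, per the series' design text. The submitters' processing notes name STAR 2.6.1a and Salmon. What they deposited is a signal for each gene, their normalized count, mostly not a whole number. The sources used here give neither its scaling and counting nor the use of strand, so overlapping genes are uncertain. Only 22.1% to 34.8% of low values were within 0.01 of a whole number of reads, so no count model was run.

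Values were taken as log2(normalized count + 1). Genes with a mean of at least 10 were fitted with limma 3.58.1 in R 4.3.3 (trend, 4 residual degrees of freedom, no covariate, two-sided). Transcript GC and length came from the longest protein-coding GENCODE transcript. The GC correction subtracted a smoothing spline with 6 degrees of freedom per library from genes with a GC value (96%). The fits were tested on simulated data. Promoters are RefSeq's (GRCm38.p6).

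Named genes are the 10 members, the targeted genes, Trp53, Mdm4, up to 4 called genes per list and comparison by size of change (5 are named for Tfam+/-Zbp1-/- against Tfam+/-, of which Igfbp7 was chosen after its values were seen), and the 5 genes most like Cdkn2a, Cdkn1a and Mdm2. Members and lists were chosen with earlier results of these data known. Of the secretory list, 1 gene is not reported here and is left out of its counts.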

Additional observations from a re-analysis of the deposited data

How the results depend on the processing

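Counts are in this order: WT compared with Tfam+/- and with Zbp1-/-, then Tfam+/-Zbp1-/- against Tfam+/-, Zbp1-/- and WT, then the interaction. Over all 8 libraries 97, 141, 748, 55, 183, 88 genes passed, and 0 of the 10 members in each. Pseudocounts of 5 and 0.1, a mean of at least 50 and a prior without trend kept each count within 1.5 times, each member's sign and 0 members called. Without a filter 81, 87, 650, 26, 117, 47 genes passed, and after TMM rescaling 97, 83, 743, 59, 171, 88, with 0 members each time. In fits of only the genotypes compared (not possible for the interaction) 28, 1, 359, 1, 5935 genes and 0, 0, 0, 0, 6 members passed.

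The difference between replicates 1 and 2, taken gene by gene, correlated at -0.698 to 0.0591 between genotypes, so the replicate numbers do not pair libraries. With the replicate block 28, 1, 351, 1, 8, 0 genes and 0 members passed. With the numbers crossed for Tfam+/-Zbp1-/- against WT, where the correlation was -0.366, 6211 genes and 6 members did. Leaving out each library in turn gave 12 to 98, 0 to 223, 12 to 874, 0 to 69, 0 to 256 and 0 to 126 genes, and 0 members throughout.

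The following were chosen after seeing the data. The shared term gave 2069, 4717, 6049, 3155, 5634, 2240 genes and 3, 7, 6, 7, 6, 6 members. In the other 6 libraries 2049, 4548, 5779, 3102, 5946, 2534 genes and 3, 7, 5, 7, 6, 6 members did. After the GC correction 480, 1042, 2283, 956, 956, 812 genes and 0, 1, 3, 2, 1, 2 members did. The replicate block with the GC correction gave 265, 530, 1674, 501, 637, 435 genes and 0, 0, 3, 0, 0, 0 members.

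Members' changes took the opposite sign as follows, on the log2 scale, and the cause was not tested. After rescaling these were for Zbp1-/- against WT Zmat3 -0.028, for Tfam+/-Zbp1-/- against WT Cdkn2a -0.11, Cdkn1a -0.072, Trp53inp1 -0.075, Zmat3 -0.015. With the term they were for Tfam+/- against WT Cdkn2a -0.019, Sesn2 -0.071, Lmnb1 -0.0013, for Zbp1-/- against WT Trp53inp1 0.39, for Tfam+/-Zbp1-/- against Tfam+/- Cdkn2a 0.020, Cdkn2b 0.11, Ccng1 -0.18, Bax 0.048, Sesn2 0.066, for Tfam+/-Zbp1-/- against Zbp1-/- Mdm2 -0.12, Ccng1 -0.22, Trp53inp1 -0.35, Bax 0.027, Zmat3 -0.25, for the interaction Ccng1 -0.17, Trp53inp1 -0.092, Zmat3 -0.21. In the other 6 libraries they were for Tfam+/- against WT Cdkn2a -0.11, Sesn2 -0.10, for Zbp1-/- against WT Trp53inp1 0.41, for Tfam+/-Zbp1-/- against Tfam+/- Cdkn2a 0.11, Cdkn2b 0.092, Ccng1 -0.17, Bax 0.076, Sesn2 0.094, for Tfam+/-Zbp1-/- against Zbp1-/- Mdm2 -0.11, Ccng1 -0.23, Trp53inp1 -0.37, Zmat3 -0.26, for the interaction Ccng1 -0.17, Trp53inp1 -0.092, Zmat3 -0.21. After the GC correction, with or without the replicate block, they were for Tfam+/- against WT Sesn2 -0.061, Lmnb1 -0.12, for Zbp1-/- against WT Cdkn2a -0.068, Trp53inp1 0.18, Bax -0.069, for Tfam+/-Zbp1-/- against Tfam+/- Ccng1 -0.18, for Tfam+/-Zbp1-/- against Zbp1-/- Mdm2 -0.12, Ccng1 -0.15, Trp53inp1 -0.18, Zmat3 -0.055, for Tfam+/-Zbp1-/- against WT Cdkn2a -0.22, Cdkn1a -0.10, Bax -0.14, Zmat3 -0.0005, for the interaction Ccng1 -0.053. Of these, 8 of 17 with the shared term and 8 of 15 in the other 6 libraries were past the threshold, and 0 of the rest. Leaving out 1 library gave ranges across 0 for Tfam+/- against WT Cdkn2a -0.11 to 0.69, Sesn2 -0.10 to 0.34, Mdm2 -0.10 to 0.19, Lmnb1 -0.0029 to 0.0083, for Zbp1-/- against WT Zmat3 -0.20 to 0.36, Trp53inp1 -0.91 to 0.41, for Tfam+/-Zbp1-/- against Tfam+/- Cdkn2a -0.69 to 0.11, Cdkn2b -0.15 to 0.092, Ccng1 -0.17 to 0.70, Bax -0.53 to 0.076, Sesn2 -0.34 to 0.094, for Tfam+/-Zbp1-/- against Zbp1-/- Mdm2 -0.11 to 0.13, Ccng1 -0.23 to 0.67, Trp53inp1 -0.37 to 0.95, Zmat3 -0.26 to 0.30, for Tfam+/-Zbp1-/- against WT Cdkn2a -0.10 to 0.10, Sesn2 -0.034 to 0.023, for the interaction Mdm2 -0.18 to 0.11.

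With 2 libraries per genotype, 4 residual degrees of freedom and 2 of 8 libraries apart, small changes of single genes were not detectable at this spread. Read depth is unknown, since the deposited values are not whole reads. The shared term moved the prior degrees of freedom from 2.77 to 15.1, and it assumes the same shift in both libraries that stood apart. In the fit without those libraries, Tfam+/- and Zbp1-/- rest on 1 library each.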
